A study of Homo sapiens with 6 samples.

Results

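The genes described here are the 10 that keep, set and remove cytosine methylation in DNA: UHRF1, UHRF2, DNMT1 and HELLS for maintenance, DNMT3A and DNMT3B for new methylation, TET1, TET2 and TET3 for oxidation of methylcytosine, and TDG for excision of the oxidised bases. They were taken by gene symbol, and each of the 10 was found among the 20388 symbols of the table. The cells were MHCC-97H, an established human hepatocellular carcinoma line of wild-type genotype according to the labels. Libraries were made from cells held for 24 h in the solvent DMSO (3 libraries) or in 2 µM GK921, an inhibitor of transglutaminase 2 (3 libraries). Both groups shared the line and the medium as far as the labels state, and whether the 3 libraries of each group stem from different cultures is not stated. The p-values therefore set the difference between the groups only against the scatter among these libraries, which may be technical. The title of the series refers to transglutaminase 2, to serotonylated histones and to MYC, and the comparison addresses the response of the transcriptome to the inhibitor.

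DNA methylation in mammals sits mostly on cytosines followed by guanine (CpG) and is copied after each round of replication. UHRF1 binds hemimethylated CpG behind the fork, ubiquitylates histone H3 and so recruits DNMT1, which methylates the new strand, while the remodeller HELLS opens nucleosomes for this step together with its partner CDCA7. DNMT3A and DNMT3B methylate unmarked sites, the TET enzymes oxidise methylcytosine with 2-oxoglutarate as cosubstrate, and TDG removes formyl- and carboxylcytosine so that base excision repair can restore cytosine. In liver tumours UHRF1 is known for high expression, and many hepatocellular carcinomas show focal gain and global loss of methylation. The data here are mRNA levels, and methylation itself was not measured in the table.

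The values were FPKM, fragments counted per kilobase of a transcript and scaled to the library's total. Levels of different genes can be compared only as far as the gene lengths used, which are not given, fit these cells. The sources used here give no read totals. Relative depths, estimated from the spacing of the lowest values, lay between 0.87 and 1 in DMSO and between 0.768 and 0.864 after GK921, so values near 0 are coarser after GK921. Across tested genes the correlation was 0.993 to 0.995 within a group and 0.914 between groups. The hepatocyte identity of the line was faint: of 8 hepatocyte markers 1, HNF4A, averaged at least 1 FPKM, and ALB, the albumin gene, averaged 0.0933 FPKM in DMSO. Of 3 epithelial markers the keratin genes KRT8 and KRT18 averaged 1633 and 740.3 FPKM in DMSO, but EPCAM only 0.577 FPKM. Of 5 leukocyte markers 0 averaged at least 1 FPKM, and of 3 endothelial markers 1 did, PECAM1, at 3.83 FPKM in DMSO and 3.94 FPKM after GK921. The summed level of 6 fibroblast markers lay between 48.5 and 52.4 FPKM with DMSO against 22.6 to 28.6 FPKM with GK921. Of the 6 markers 2 averaged at least 1 FPKM, LUM and DCN. LUM made up most of the sum, at 42.2 FPKM in DMSO and 24.8 FPKM after GK921. DCN was at 8.34 FPKM in DMSO and 0.953 FPKM after GK921. The defining collagen gene COL1A1 was at 0.00667 FPKM in DMSO and 0 after GK921. The part of this change in fibroblast markers in the results was not tested.

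UHRF1, HELLS and DNMT1 fell by 14.5-fold, 4.57-fold and 3.63-fold after GK921, while DNMT3B, DNMT3A, TET2 and UHRF2 rose by 2.47-fold, 2.41-fold, 1.68-fold and 1.67-fold (ratios of mean FPKM). TET3 and TDG did not pass the test, and TET1, which averaged under 1 FPKM, was not tested. Genes were tested with limma on log2(FPKM + 1) when their mean over the 6 libraries reached 1 FPKM, and a gene is called higher or lower at a Benjamini-Hochberg adjusted p under 0.05 over all 11573 tested genes. Most of the transcriptome moved in this comparison: 75.9% of tested genes were called, 46.8% higher and 29.2% lower. The 7 calls among the 9 tested genes here (4 higher and 3 lower) therefore do not set them apart by number. The groups did not overlap for 8 of the 9, against 78% of all tested genes. The median tested gene was itself 0.16 higher on the log2 scale. With median-ratio scaling, which removes that shift, rises made up 49.1% of all calls in place of 61.6%, and among the genes here 4 rose and 4 fell.

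**Figure D1:**
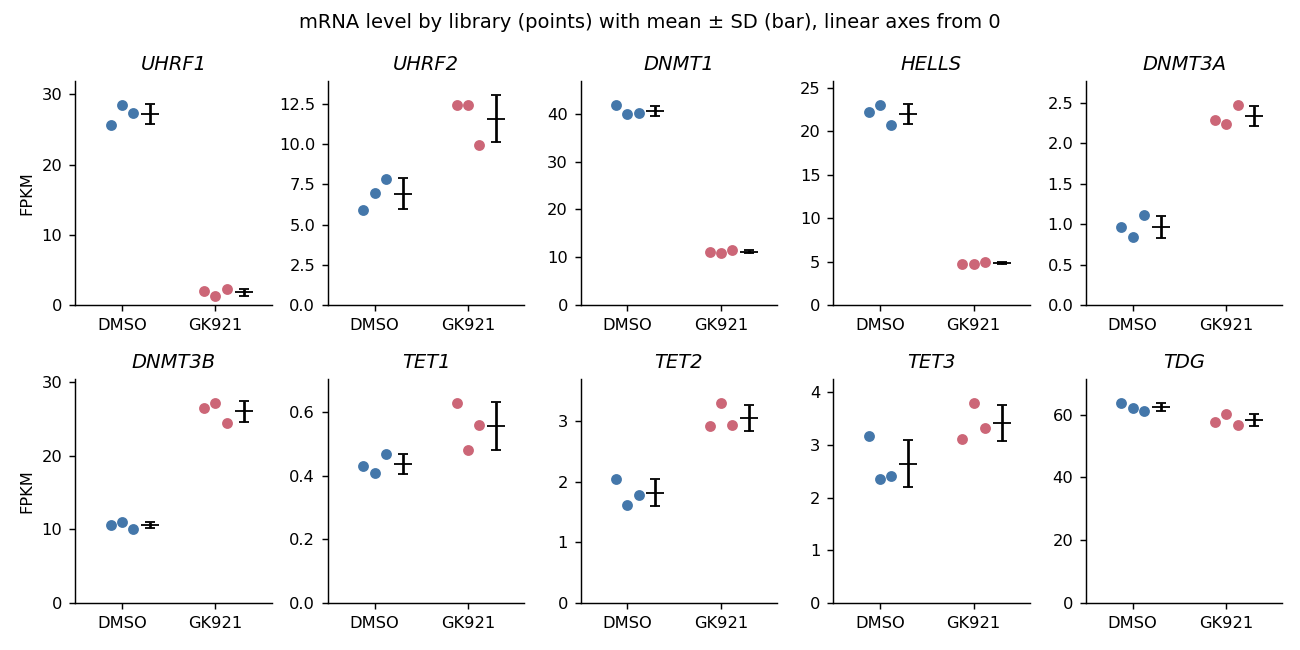
FPKM (vertical axis, linear from 0) in each of the 3 DMSO and 3 GK921 libraries for the 10 genes, as points, with the mean ± SD of each group as a bar. UHRF1, DNMT1 and HELLS are low in every GK921 library, DNMT3A, DNMT3B, UHRF2 and TET2 are high in every one, and the groups of TET3 overlap.

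UHRF1 had the largest fall of the 10. Its values were 25.6, 28.5 and 27.3 FPKM in DMSO and 2.05, 1.3 and 2.26 FPKM after GK921. The GK921 libraries were all far below the DMSO libraries, and the spread among them was wide for their level (1.87 ± 0.505 FPKM, SD, n = 3, against 27.1 ± 1.43 in DMSO). On the log2(FPKM + 1) scale the change was -3.31 ± 0.13 (SE, limma adjusted p = 3.96e-08), the 20th largest fall among the 11573 tested genes. UHRF1 lies on chromosome 19 at 4903080 to 4962154 (GRCh38, plus strand).

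UHRF2, a paralog with the same domain layout that does not replace UHRF1 in recruiting DNMT1, went the other way. It was at 5.92, 6.99 and 7.86 FPKM in DMSO and at 12.4, 12.4 and 9.92 FPKM after GK921. The groups did not overlap, although the third GK921 library came nearest to the DMSO range. Its log2 change was 0.67 ± 0.12 (SE, limma adjusted p = 0.000759). Measured within each library, the log2 gap between UHRF1 and UHRF2 went from 1.83 ± 0.141 in DMSO to -2.14 ± 0.4 after GK921 (SD, n = 3 each), a difference of -3.98 ± 0.245 (SE). The exact two-sided permutation p for that difference was 0.1, the smallest that 3 against 3 libraries allow, and 0.109 after adjustment over the 12 such pairs compared.

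DNMT1, the maintenance methyltransferase, was at 41.8, 39.9 and 40.2 FPKM in DMSO and 11.1, 11 and 11.5 FPKM after GK921. Libraries of each group lay close together, at 40.6 ± 1.03 and 11.2 ± 0.254 FPKM (SD, n = 3). Its log2 change was -1.77 ± 0.053 (SE, limma adjusted p = 8.03e-09). The gene lies on chromosome 19 at 10133345 to 10231286 (minus strand), and in GENCODE 83 of its exonic bases are shared with S1PR2 on the same strand.

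HELLS was at 22.2, 23 and 20.7 FPKM in DMSO and at 4.78, 4.72 and 4.94 FPKM after GK921. The 3 GK921 values were almost equal, and none came near the DMSO values. The log2 change was -1.98 ± 0.071 (SE, limma adjusted p = 2.32e-08). The change of HELLS minus that of DNMT1 was -0.21 ± 0.047 (SE) on the log2(FPKM + 1) scale (exact permutation p = 0.1, adjusted 0.109), but with a pseudocount of 5 the sign of that difference turned (0.035), so their order by size of fall is not settled. CDCA7, which activates HELLS, fell less: from 23.8 ± 0.233 to 9.27 ± 1.22 FPKM (SD, n = 3), a log2 change of -1.28 ± 0.088 (SE, limma adjusted p = 1.50e-06).

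All 3 maintenance genes that fell work at the replication fork, so they were set beside a list of 32 replication genes, among them the MCM helicase, the polymerase subunits and the clamp loader. Of these 32 genes 31 fell and 1, the clamp loader gene RFC1, rose, beside 29.2% lower and 46.8% higher over all tested genes. The median log2 change of the list was -1.64. The mean of the replication genes was then subtracted in each library. DNMT1 was closest to them, at -0.00398 ± 0.054 in DMSO and -0.178 ± 0.0702 after GK921 (SD, n = 3). The change relative to their mean was -0.39 ± 0.068 (SE) for HELLS and -1.71 ± 0.17 (SE) for UHRF1. In each of these 3 comparisons the groups did not overlap and the exact permutation p was 0.1 (adjusted 0.109). The fall of UHRF1 (-3.31) lay within the range of the list: GINS2, a subunit gene of the replicative helicase, changed by -3.74 on the log2 scale, and CDC45 and GINS1, of the same helicase, by -2.86 and -2.83. The difference between UHRF1 and the list's mean depended on the pseudocount, at -2.10 with 0.1 and -0.94 with 5. In bulk RNA, fewer cells of a kind (such as cells in S phase) and less RNA per cell cannot be told apart.

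UHRF1, DNMT1 and HELLS are the members called lower on the deposited scale, so the sequence before a RefSeq start of each is shown. The stretches below hold the 100 bases before a RefSeq start site, with matches to the E2F-type motif in capitals. The motif was searched as TTTCCCGC, TTTCGCGC, TTTGCCGC or TTTGGCGC on both strands, so that a match on the other strand reads as the reverse complement. E2F factors, which bind this kind of motif, are known regulators of S-phase genes. UHRF1 is read at chr19:4909401-4909500 (plus strand), DNMT1 at chr19:10194948-10195053 (minus strand, with 6 bases past the start to complete the match), HELLS at chr10:94545688-94545787 (plus strand) and UHRF2, the paralog that rose, at chr9:6413099-6413198 (plus strand), all from RefSeq on GRCh38.p14.
UHRF1: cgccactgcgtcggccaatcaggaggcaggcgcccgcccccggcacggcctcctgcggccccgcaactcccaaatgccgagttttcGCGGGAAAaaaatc
DNMT1: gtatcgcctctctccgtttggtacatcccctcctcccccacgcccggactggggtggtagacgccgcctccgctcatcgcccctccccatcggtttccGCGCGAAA
HELLS: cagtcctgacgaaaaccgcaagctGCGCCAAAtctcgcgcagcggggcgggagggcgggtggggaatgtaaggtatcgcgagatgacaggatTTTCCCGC
UHRF2: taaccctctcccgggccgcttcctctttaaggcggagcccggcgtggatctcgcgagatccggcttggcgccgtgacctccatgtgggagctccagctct

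The windows searched ran from 250 bases before to 50 after each start. UHRF1, DNMT1 and HELLS were the members with an E2F-type match in them, 3 of 10. Over all 27305 genes with such windows the share was 3.99%, and 647 of the 9371 tested genes with a window had a match. The 10 members had 21 windows and the 27305 genes 35116, and more windows per gene give more room for a match. The match began 14 bases before the start in the first UHRF1 window, 2 bases before it in DNMT1, and 8 and 76 bases before it in HELLS. A second UHRF1 start had another match 160 bases upstream. The 647 tested genes with an E2F-type match were called lower in 36.9% of cases and the 8724 without one in 28.8%. Higher calls made up 40.0% with a match and 47.4% without. On the deposited scale, genes that carry these letters were thus more often called higher than lower. These shares were not computed after rescaling, and median-ratio scaling lowered the share of rises among all calls from 61.6% to 49.1%. A match describes the sequence and is not a measured binding site. Several of these RefSeq starts lie inside the longer GENCODE gene: 6421 to 7287 bases inside for UHRF1, 36333 for DNMT1, 44354 for HELLS and 17467 for DNMT3B. For these 4 genes the sequence at the outer GENCODE start was not examined, and which start the cells used cannot be read from a table by gene. The E-box CACGTG is the core element bound by MYC and MAX among other factors. It was found in windows of DNMT3A, TET2, TET3 and TDG and in 8.77% of all genes. None of the windows of the 3 genes called lower on the deposited scale held it. The CCAAT box (CCAAT) was found in windows of DNMT3B, HELLS, TDG, TET1, TET3 and UHRF1 and in 39.7% of all genes. CHR-type elements (TTTGAA or TTCGAA) were found in windows of DNMT3A and TET2 and in 19.5% of genes, and the ATF4-type element TGATGNAA in no window of the 10 and in 4.46% of genes. The members' 21 windows held 3 to 46 CpG dinucleotides with a median of 26, against a median of 14 over all windows.

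**Figure D2:**
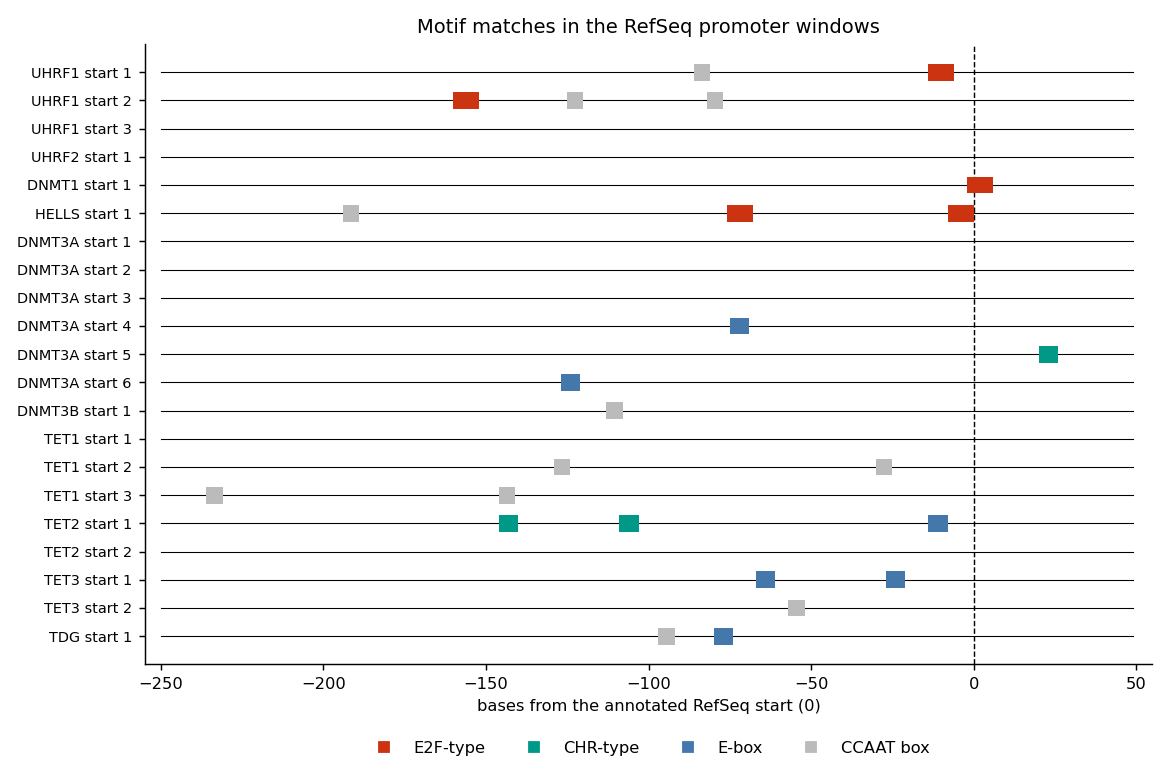
Positions of motif matches (coloured boxes) in the 21 RefSeq promoter windows of the 10 genes, with the distance from the start site in bases on the horizontal axis. E2F-type matches are present for UHRF1, DNMT1 and HELLS, the genes called lower on the deposited scale. The nearest ones begin 2 bases (DNMT1), 8 bases (HELLS) and 14 bases (UHRF1) before a start.

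The enzymes of new methylation rose. DNMT3B was at 10.7, 10.9 and 10.1 FPKM in DMSO and 26.5, 27.2 and 24.5 FPKM after GK921. Its GK921 libraries were all far above the highest DMSO library. The log2 change was 1.23 ± 0.066 (SE, limma adjusted p = 2.86e-07), and 1.07 after subtraction of the median change of all tested genes. The gene lies on chromosome 20 at 32762385 to 32809356 (plus strand). Catalytic and inactive splice forms of DNMT3B are known, and a table by gene symbol does not separate them.

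DNMT3A was far less abundant, at 0.96, 0.84 and 1.11 FPKM in DMSO and 2.29, 2.24 and 2.47 FPKM after GK921. All GK921 values lay above the DMSO values. Its log2 change was 0.76 ± 0.13 (SE, limma adjusted p = 0.00052). DNMT3A averaged 0.97 FPKM in DMSO and reached the limit for testing through its GK921 libraries, so its call is no independent count. DNMT3B and DNMT3A had nearly equal ratios of means, and the gap between their log2 changes (0.47 ± 0.12, SE, exact permutation p = 0.1, adjusted 0.109) shrank to 0.1 with a pseudocount of 0.1. DNMT3L, the inactive cofactor of both, was listed at 0 in every library.

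Because FPKM is per length, the makeup of the methyltransferase mRNA can be read within each library, with the limit that the gene lengths used are not given. In GENCODE the joined exons span 9796 bases for DNMT1, 12020 for DNMT3A and 4630 for DNMT3B. DNMT1 made up 78.2%, 77.2% and 78.2% of the summed DNMT1, DNMT3A and DNMT3B level in DMSO, and 27.9%, 27.2% and 29.9% after GK921. DNMT3B went from 20.3% ± 0.816 to 65.8% ± 1.86 (SD, n = 3), and DNMT3A from 1.86% ± 0.272 to 5.9% ± 0.465. The methyltransferase gene with the highest FPKM was thus DNMT1 in each DMSO library and DNMT3B in each GK921 library. For the sum itself the means were 52.2 ± 1.1 FPKM with DMSO against 39.6 ± 1.04 FPKM with GK921 (SD, n = 3), without overlap.

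The makeup of the UHRF pair, read with the same limit on gene lengths, also changed. UHRF1 was 81.2%, 80.3% and 77.6% of the pair in DMSO and 14.2%, 9.48% and 18.6% after GK921, while both together averaged 34.1 ± 2.18 FPKM with DMSO against 13.5 ± 1.16 FPKM with GK921 (SD, n = 3).

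**Figure D3:**
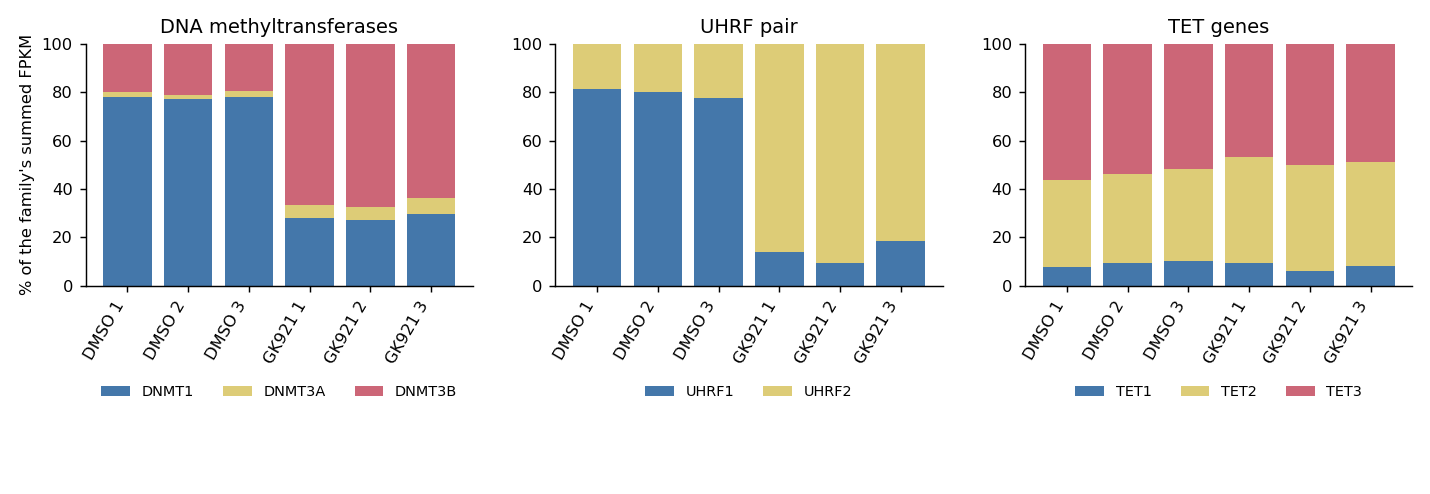
Makeup of each family's mRNA by library (stacked bars, % of the family's summed FPKM). DNMT1 makes up 77.2% to 78.2% of the DNMT sum in DMSO and 27.2% to 29.9% after GK921, UHRF1 goes from the larger to the smaller part of the UHRF pair, and TET2 goes from 37.1% to 43.4% of the TET sum on average.

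The TET genes were low throughout. TET2, a dioxygenase that lacks a CpG-binding domain of its own, was at 2.05, 1.61 and 1.78 FPKM in DMSO and 2.91, 3.3 and 2.93 FPKM after GK921, with no overlap. Its log2 change was 0.53 ± 0.12 (SE, limma adjusted p = 0.00319), and 0.37 after the same subtraction. With quantile normalization the change was 0.28 and no longer called (limma adjusted p = 0.0609), and in limma's test against a 1.2-fold change TET2 was not called either (adjusted p = 0.0563).

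TET3, which carries a CXXC domain that binds CpG, was at 3.16, 2.36 and 2.41 FPKM in DMSO and 3.12, 3.8 and 3.33 FPKM after GK921. The first DMSO library was above the first GK921 library, so the groups overlapped. Its log2 change of 0.28 ± 0.13 (SE) was not called (limma adjusted p = 0.0725, 95% interval -0.0097 to 0.573). Without that first DMSO library it was 0.38 and called (limma adjusted p = 0.0302).

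TET1, the other member with a CXXC domain, was at 0.43, 0.41 and 0.47 FPKM in DMSO and 0.63, 0.48 and 0.56 FPKM after GK921. The second GK921 library was just above the highest DMSO library, and at 2 decimals these values are coarse. In a fit without an expression limit its log2 change was 0.11 ± 0.066 (SE) and not called (limma adjusted p = 0.185). The summed TET level went from 4.89 ± 0.662 to 7.02 ± 0.492 FPKM (SD, n = 3). TET2 took 37.1% ± 0.971 of it in DMSO and 43.4% ± 0.385 after GK921. Within libraries, the log2 change of TET2 was 0.24 ± 0.051 (SE) above that of TET3, with separate groups and an exact permutation p of 0.1 (adjusted 0.109). For TET1 against TET3 that difference was -0.17 ± 0.15 (SE), with overlapping groups and an exact permutation p of 0.3.

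TDG, the glycosylase, had the highest FPKM of the 10 in both groups. It was at 63.8, 62 and 61.3 FPKM in DMSO and 57.8, 60.4 and 56.7 FPKM after GK921. Every GK921 value was below every DMSO value, by less than 1 FPKM at the nearest. The log2 change was -0.096 ± 0.041 (SE) and not called as deposited (limma adjusted p = 0.0607, 95% interval -0.19 to -0.00174). It was called lower after rescaling, at -0.27 by median ratio, -0.21 by upper quartile and -0.17 by quantiles (limma adjusted p = 0.000335, 0.00156 and 0.00669), and it was also called without the second GK921 library (-0.12, limma adjusted p = 0.0347). Numbered pseudogenes of TDG, TET1 and UHRF2 are annotated (TDGP1, TET1P1 and UHRF2P1), and the handling of reads that fit more than one place is not stated.

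**Figure D4:**
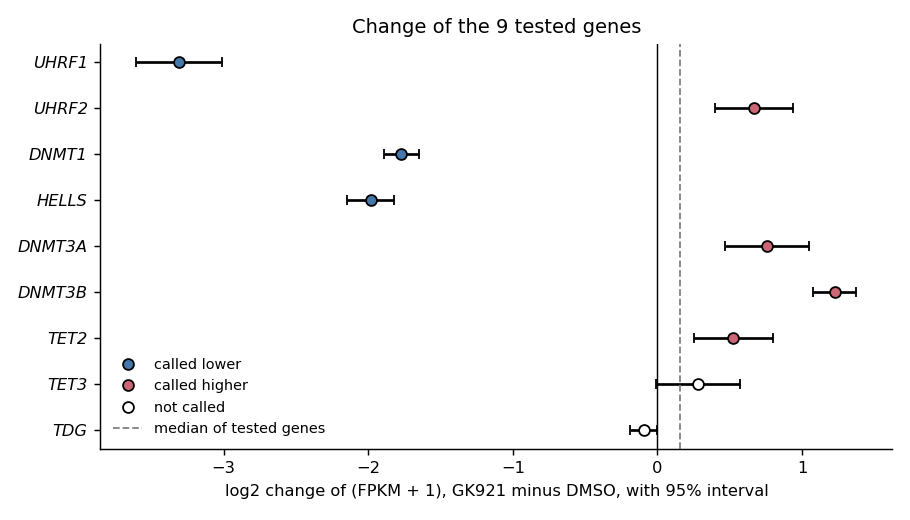
Log2 change of (FPKM + 1), GK921 minus DMSO, for the 9 tested genes (points) with 95% intervals from limma (bars). UHRF1, HELLS and DNMT1 lie at -3.31, -1.98 and -1.77, DNMT3B at 1.23, and the dashed line marks the median of all tested genes at 0.16.

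By FPKM, which depends on the gene lengths used, the order in DMSO was TDG, DNMT1, UHRF1, HELLS, DNMT3B, UHRF2, TET3, TET2, DNMT3A and TET1. After GK921 it was TDG, DNMT3B, UHRF2, DNMT1, HELLS, TET3, TET2, DNMT3A, UHRF1 and TET1. Library values of UHRF2 and DNMT1 overlapped after GK921, as did those of TET3 and TET2 and, at their edges, those of DNMT3A and UHRF1. In DMSO no neighbours in the order had overlapping values. UHRF1 thus went from the third to the ninth place.

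Factors that work with the maintenance enzymes mostly fell: of 15 listed, 13 were tested, 10 were lower and 2 higher, beside 29.2% lower and 46.8% higher over all tested genes. Their median log2 change was -0.65 against 0.16 for all tested genes. PCNA, the sliding clamp that holds DNMT1 at the fork, fell from 254 ± 1.82 to 46.6 ± 1.76 FPKM (log2 change -2.42 ± 0.037, limma adjusted p = 2.33e-10). SUV39H1, a histone H3 lysine 9 methyltransferase, and LIG1, the replicative ligase whose methylated form is bound by UHRF1, had log2 changes of -1.89 ± 0.075 and -1.50 ± 0.078 (SE). USP7, the deubiquitylase that stabilises UHRF1 and DNMT1, was at 70.4 FPKM in DMSO and 52.8 FPKM after GK921 and was called lower (limma adjusted p = 8.58e-06). DMAP1, a DNMT1-associated protein gene, rose by 0.44 ± 0.078 (SE, limma adjusted p = 0.000711). PCLAF was listed at 0 in every library, and no statement about it is made.

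Genes that steer new methylation to silent chromatin were split. Of 14 listed, 12 were tested, 7 were lower and 3 higher (median log2 change -0.22), beside 29.2% lower and 46.8% higher over all tested genes. Of the 3 rises 2, MORC2 and MPHOSPH8, were not called under any of the 3 rescalings. TRIM28, the corepressor that recruits SETDB1, fell from 136 ± 2 to 65.3 ± 0.278 FPKM, and CBX5, which encodes HP1 alpha, fell from 64.1 ± 4.18 to 32.2 ± 2.59 FPKM. NSD2, which writes histone H3 lysine 36 dimethylation, fell by 0.62 on the log2 scale (limma adjusted p = 1.36e-05). ATF7IP, the partner of SETDB1, rose from 30.2 ± 1.31 to 45.6 ± 2.2 FPKM.

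The readers of methylated CpG changed in both directions. All 10 listed were tested, and 5 were higher and 4 lower, beside 46.8% higher and 29.2% lower over all tested genes. These counts do not set the readers apart. Their median log2 change was 0.19, and with median-ratio scaling 3 were higher. MBD3, a subunit of the NuRD complex, fell from 52.6 ± 1.13 to 20.4 ± 3.39 FPKM (log2 change -1.34 ± 0.1, limma adjusted p = 2.58e-06). MBD1 and MBD6 had log2 changes of 0.74 and 0.39 and were called higher under the deposited scale and each of the 3 rescalings.

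Downstream of TDG, 15 base excision repair genes were listed and 13 tested, with 5 lower, 2 higher and 6 not called (median log2 change -0.061). The lower calls were near the 29.2% of all tested genes, of which 46.8% were higher. FEN1, the flap nuclease that also acts in replication, fell from 119 ± 0.764 to 40.3 ± 2.81 FPKM. UNG, the uracil glycosylase, and XRCC1, the repair scaffold, fell by 1.18 and 1.03 on the log2 scale (limma adjusted p = 3.62e-07 and 1.70e-05). The rise of POLB, the repair polymerase gene, was lost with each of the 3 rescalings.

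Among 11 tested genes linked to TET activity, 6 were higher and 2 lower, beside 46.8% higher and 29.2% lower over all tested genes, and 6 were higher and 5 lower under median-ratio scaling. Their median log2 change was 0.67, beside 0.16 over all tested genes. GADD45A and GADD45B, stress-induced proteins reported to aid demethylation through TDG, were at 70.6 ± 3.05 and 15.9 ± 2.92 FPKM in DMSO and at 381 ± 11.8 and 79.3 ± 1.55 FPKM after GK921. These genes are also known stress-response targets, so they are not specific to methylation. OGT, the glycosyltransferase that binds TET2 and TET3, rose from 113 ± 5.93 to 267 ± 6.66 FPKM (log2 change 1.24 ± 0.043, limma adjusted p = 1.82e-08). IDH1, which makes 2-oxoglutarate, had a log2 change of 0.93 and was called higher.

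Of 11 tested genes of the cycle that makes the methyl donor S-adenosylmethionine, 6 were higher and 4 lower, and 3 of the rises were lost under median-ratio scaling. The median log2 change of 0.21 was near the 0.16 of all tested genes, of which 46.8% were higher and 29.2% lower. AHCY, which removes the inhibitory product S-adenosylhomocysteine, fell from 191 ± 2.88 to 95.7 ± 4.02 FPKM. MAT2A, the S-adenosylmethionine synthetase, was at 269 FPKM in DMSO and 165 FPKM after GK921 and was called lower (limma adjusted p = 7.25e-08). BHMT2 and BHMT, betaine-homocysteine methyltransferase genes, had log2 changes of 0.71 and 1.16, the second from a mean of 0.32 FPKM in DMSO that reached the limit through its GK921 libraries.

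**Figure D5:**
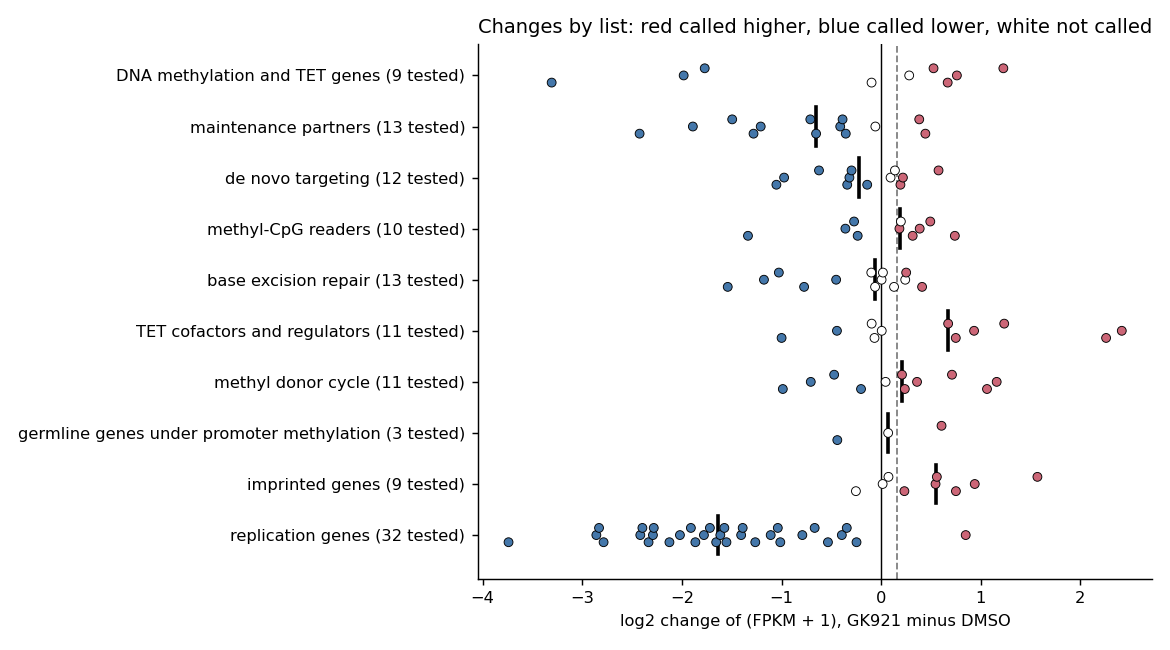
Log2 change of (FPKM + 1), GK921 minus DMSO, for each tested gene (points) of the DNA methylation and TET genes and of 9 context lists, with the list's median as a black tick (none for the first row) and the median of all tested genes as a dashed line. The replication list (median -1.64) and the maintenance partners (median -0.65) lie to the left, and the TET cofactors (median 0.67) to the right.

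Genes that promoter methylation keeps silent in somatic cells were examined next. Of 22 germline genes listed, 13 were listed at 0 in all 6 libraries and 3 were tested. DAZL, MAGEA1 and MAGEA4, germ cell and cancer-testis genes, were among those at 0. MAGEC2 rose from 7.83 ± 0.112 to 12.5 ± 1.45 FPKM (log2 change 0.61 ± 0.091, limma adjusted p = 0.00025), and MAGEA3 fell from 128 ± 5.04 to 94.3 ± 2.13 FPKM (log2 change -0.44 ± 0.039, limma adjusted p = 8.36e-06). MAGEA3 and MAGEA6 are nearly identical, so their reads cannot be told apart with certainty. STAG3, a meiotic cohesin gene, was at 7.2 FPKM in DMSO and 7.61 FPKM after GK921 (limma adjusted p = 0.458).

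Of 17 symbols of imprinted genes, whose parental alleles differ in methylation, 7 were at 0 in all libraries and 9 were tested. On the deposited scale 6 of the 9 were called higher by limma and 3 were not called, beside 46.8% higher over all tested genes, and the median log2 change was 0.55, beside 0.16. With median-ratio scaling 4 were higher and 1, GRB10, was lower. PEG10, a retrotransposon-derived gene, rose from 135 ± 1.57 to 404 ± 15.6 FPKM (log2 change 1.57 ± 0.034, limma adjusted p = 1.37e-09), and its neighbour SGCE from 37.4 ± 1.2 to 72.7 ± 2.59 FPKM. PHLDA2 rose from 158 ± 1.22 to 234 ± 11.4 FPKM. NNAT, at 1.16 ± 0.429 and 2.71 ± 1.21 FPKM, was called higher as deposited (limma adjusted p = 0.0194) and not with quantile normalization (limma adjusted p = 0.0912). Alleles are not resolved in the table.

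The genes whose 6 values ran nearest to those of UHRF1 were found by the root mean square difference of log2(FPKM + 1), centred on the DMSO mean, over the 6 libraries. They were ASF1B, a histone chaperone gene (0.173 log2 units from UHRF1), SPC25, a kinetochore gene (0.178), AKR1B10, an aldo-keto reductase gene (0.186), ANXA10, an annexin gene (0.195), and CDH6, a cadherin gene (0.2). For DNMT3B the nearest were DERL2 (0.0283), KDM3A (0.036), RNF13 (0.0361), NCOA7 (0.0365) and EDEM2 (0.0407). DERL2 and EDEM2 act in the degradation of misfolded proteins of the endoplasmic reticulum, and KDM3A encodes a histone demethylase. With 6 libraries in 2 groups, this measure mostly reflects the size of the change between the groups.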

How the data were processed

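RNA sequencing was analysed in 6 libraries of MHCC-97H cells, 3 given DMSO and 3 given 2 µM GK921 for 24 h, with groups and replicate numbers taken from the sample titles. The authors deposited FPKM per gene symbol with 2 decimals, per the file headers. Build hg38 and the tools HISAT2, featureCounts, edgeR and FastQC 0.11.5 are listed in the submitters' processing notes, with no roles. The sources used here do not give the annotation, the strand setting or how multiply mapped reads were handled. FPKM is relative to each library's total, so a shift in total RNA per cell cannot be seen.

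The values were used as deposited and tested on the log2(FPKM + 1) scale with limma 3.58.1 (R 4.3.3). Genes entered when their 6 values averaged 1 FPKM or more, with treatment as the only term, an intensity trend and Benjamini-Hochberg adjustment over all 11573 tested genes. This scale understates changes of low genes. Printed folds are ratios of mean FPKM. Differences between genes used exact two-sided permutation over libraries. No counting interval could be set, since absolute depth is unknown. Relative depth came from the steps between FPKM values of 0.1 to 0.5 in 525 to 748 genes per pair of libraries, with a largest misfit of 0.0108 log2 units. The test and the depth estimate were tested on simulated data.

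The members and lists were chosen with earlier results of these data known. Named genes were the 10 members, for each list up to 4 of the called genes with the largest changes, at least 1 in each direction where present, and the 5 nearest profiles to the members with the largest fall and rise. Some genes that this rule names are not reported here. CDCA7, USP7, MAT2A, IDH1, POLB, MORC2, MPHOSPH8, STAG3, GRB10 and genes listed at 0 were named after their values were seen. Of the list symbols, 3 imprinted noncoding genes are not used here. Gene positions came from GENCODE release 29 (GRCh38) and promoter windows from RefSeq (GRCh38.p14), in which all 10 members were matched and 9371 tested genes had a window. The alternatives changed the pseudocount, the expression limit or the scaling (3 methods), used the replicate number as a block, left out each library, or used no trend, array weights or a test against a 1.2-fold change.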

Additional observations from a re-analysis of the deposited data

How the results depend on the processing

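The calls of UHRF1, DNMT1, HELLS, DNMT3A, DNMT3B and UHRF2 kept their direction and their side of the threshold in each alternative in which the gene was tested, the test against a 1.2-fold change included. With a mean of at least 5 FPKM, 2 members were called higher, since DNMT3A and TET2 were not tested. TET2 was lost with quantile normalization (0.28) and in the test against a 1.2-fold change (0.53, limma adjusted p = 0.0563, an alternative for single members that was chosen after seeing the data), and TET3 was called without an intensity trend (0.28) and in 1 of the fits that leave out a library, the one without the first DMSO library (0.22 to 0.38). TDG was called lower when scaled by median ratio (-0.27), by upper quartile (-0.21) or by quantiles (-0.17), and was between -0.12 and -0.077 with a library left out. Over all genes, the test against a 1.2-fold change called 5730 instead of 8789. Leaving out a library gave 8384 to 8474 calls. No source says that equal replicate numbers mark a shared culture, and the correlation of deviations between same-numbered libraries was 0.0305, 0.0473 and -0.00207. With the replicate block 8706 genes were called, and no call of a member changed.

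Counts of higher genes fell with rescaling in the lists that lean on small rises. Under each of the 3 rescalings, 1 de novo targeting gene and 1 base excision repair gene were higher. Median-ratio scaling left 3 methyl-CpG readers higher and 1 imprinted gene lower, and it and upper-quartile scaling left 3 methyl donor genes higher. The TET cofactors called lower were 5 with median-ratio and 4 with upper-quartile or quantile scaling. With a library left out, 1 to 3 base excision repair genes were higher (1 without the second DMSO, the first GK921 or the third GK921 library) and 0 to 1 imprinted genes lower (1 without the second DMSO library).

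Differences between genes moved with the pseudocount, as the scale implies for low values. With pseudocounts of 0.1 and 5 they were -4.56 and -2.70 for UHRF1 minus UHRF2, -1.97 and -0.73 for UHRF1 minus DNMT1, -0.32 and 0.035 (reversed) for HELLS minus DNMT1, 0.10 and 0.70 for DNMT3B minus DNMT3A, 3.04 and 1.79 for DNMT3A minus DNMT1, 0.36 and 0.10 for TET2 minus TET3, 1.75 and 1.40 for TDG minus DNMT1, and -2.10 and -0.94 for UHRF1 minus the replication mean. With a pseudocount of 5, HELLS minus CDCA7 was -0.44 and HELLS minus the replication mean -0.17. With quantile normalization, DNMT3A minus DNMT1 was 2.44 and TDG minus DNMT1 1.74. Absolute depth is unknown, which limits what can be said of TET1 and other genes near 0.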
